A study of Homo sapiens with 8 samples.

Results

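The members of the Hippo pathway core described here were 10 genes: NF2, the kinases STK3, LATS1 and LATS2, the co-activators YAP1 and WWTR1, and the DNA-binding factors TEAD1, TEAD2, TEAD3 and TEAD4. They were taken from the table by gene symbol, and each was read at its transcript with the highest mean FPKM over the 8 libraries. They are 10 of the 27946 genes of the table, and all 10 were among the 13790 genes tested (0.5 FPKM or more in 2 or more libraries).

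RNA was measured in EA.hy926, an immortalized hybrid line made by fusing umbilical vein endothelial cells with the lung carcinoma line A549, grown in high-glucose DMEM with fetal bovine serum. CRISPR/Cas9 was used to delete either of 2 stretches of non-coding DNA of the super-enhancer SE12313. These were the enhancer E2 and another element of the same cluster, SE12313-b, which the study deleted as a negative control for E2. The ΔE2 group and the ΔSE12313-b group held 3 libraries each, from separate clonal knock-out lines, and the EA.hy926 control group held 2. Nothing in the sources says that the 2 control libraries came from separate cultures or from a single-cell clone. The p-values therefore measure the spread between these libraries, which for the controls may be technical. When a knock-out group is set against the controls, a deletion cannot be told apart from having been cloned or treated with Cas9. Both of those comparisons use the same 2 control libraries. The deletions lie outside genes, so no member's level checks the genotype.

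In the Hippo pathway, the membrane-linked scaffold merlin, encoded by NF2, helps to activate a kinase cascade in which MST kinases such as MST2, encoded by STK3, phosphorylate the LATS kinases. LATS1 and LATS2 in turn phosphorylate the co-activators YAP, encoded by YAP1, and TAZ, encoded by WWTR1, which keeps them out of the nucleus and promotes their breakdown. Nuclear YAP and TAZ bind TEAD factors on DNA and raise genes of growth, adhesion and matrix, and in endothelium they are known for roles in vessel sprouting and junctions. Much of this control acts on phosphorylation and localization of the proteins, which RNA levels do not measure.

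The tables gave FPKM, fragments scaled to transcript length and library size, so levels of different genes can be compared per length at the transcripts read. Members had from 1 to 9 transcripts listed, and a gene read at the highest of several is favoured in level. The FPKM steps gave 12067565 to 12696180 reads for the controls, 13616470 to 19101157 for the ΔE2 clones and 14814168 to 16085525 for the ΔSE12313-b clones. A member had between 44 and 3900 of these reads in a library. Of the endothelial marker list, 9 of 10 genes had a mean of at least 0.5 FPKM in every group, with KDR at 0.19, 0.20 and 0.08 FPKM in the controls, ΔE2 and ΔSE12313-b. The summed endothelial level was 461 to 463 FPKM in the controls, 508 to 727 in ΔE2 and 510 to 715 in ΔSE12313-b. The genes of this list did not move together. PECAM1, TEK, ERG, EGFL7, ENG and ESAM had higher means in both knock-out groups than in the controls, and CDH5, VWF and TIE1 had lower means in both. Of the epithelial list, 3 of 6 genes were at or above 0.5 FPKM (KRT8, KRT18 and KRT7), CDH1 was at 0, and the sums were 361 to 363, 1084 to 1210 and 811 to 1069 FPKM. These 3 keratins had higher means in both knock-out groups and made up nearly all of the sums. EPCAM went the other way, with means of 0.40, 0.19 and 0.05 FPKM, and KRT19 was at 0, 0.09 and 0.09 FPKM. The fibroblast and smooth muscle list held 1 of 5 genes at that level, ACTA2, with means of 5.59, 0.86 and 0.92 FPKM. COL3A1 and LUM were below 0.1 FPKM in every library, and the list summed to 5.04 to 6.44, 0.448 to 1.80 and 0.677 to 1.54 FPKM. None of the 3 blood markers reached 0.1 FPKM. The 5 genes of cell division (MKI67, TOP2A, CCNB1, PCNA, MCM2) summed to 73.7 to 76.1 FPKM in the controls against 403 to 498 in ΔE2 and 455 to 491 in ΔSE12313-b. In its own assays the study measured reduced proliferation and a smaller share of S-phase cells in both sets of clones than in control cells. The RNA sum went the other way from those assays. The growth state of the cultures taken for RNA is not described, so the sum is not read here as a rate of division. The marker and division sums moved with both knock-out groups, and their part in the results below was not tested. In these bulk libraries, fewer cells carrying a transcript and less of it per cell cannot be told apart.

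The regulatory sequence of the members is shown by the 250 bases before the transcription start of 3 of them. NF2 and TEAD3 are shown because they had the widest ranges of group means, and YAP1 because its window held the TEAD core. RefSeq windows on GRCh38.p14 were examined for 7 members, in 11 windows. No window of STK3, TEAD1 or TEAD4 was examined, so the counts of windows below leave these members out. The motifs below were searched on both strands: the TEAD core GGAATG (or CATTCC), the GC box GGGCGG (or CCGCCC) bound by Sp-family factors, and the CCAAT box (CCAAT or ATTGG). In the YAP1 sequence the capitals mark the TEAD core, and in NF2 and TEAD3 they mark GC boxes.
NF2, chr22:29603306-29603555, plus strand: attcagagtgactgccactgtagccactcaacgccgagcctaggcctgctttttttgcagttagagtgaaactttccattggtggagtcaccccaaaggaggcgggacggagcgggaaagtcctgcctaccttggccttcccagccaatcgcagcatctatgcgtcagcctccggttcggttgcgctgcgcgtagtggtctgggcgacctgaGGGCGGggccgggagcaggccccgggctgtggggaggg
TEAD3, chr6:35497080-35497329, minus strand: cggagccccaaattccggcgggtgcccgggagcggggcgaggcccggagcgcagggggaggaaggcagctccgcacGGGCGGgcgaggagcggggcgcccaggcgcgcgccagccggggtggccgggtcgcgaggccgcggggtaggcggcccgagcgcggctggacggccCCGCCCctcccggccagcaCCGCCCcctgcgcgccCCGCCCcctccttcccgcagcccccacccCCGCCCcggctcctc
YAP1, chr11:102110197-102110446, plus strand: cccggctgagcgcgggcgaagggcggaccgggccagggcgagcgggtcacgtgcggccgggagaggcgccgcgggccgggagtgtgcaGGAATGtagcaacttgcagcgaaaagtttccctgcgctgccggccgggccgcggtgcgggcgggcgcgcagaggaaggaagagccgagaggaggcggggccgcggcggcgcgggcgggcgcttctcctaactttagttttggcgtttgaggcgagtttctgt
The NF2 window held 1 GC box and 2 CCAAT boxes at 62.4% G and C, and the TEAD3 window held 5 GC boxes and no CCAAT box at 84% G and C. YAP1 had the TEAD core once, at position -162 from the start, with 3 GC boxes. A TEAD core was found in 1 of the 11 windows of members and in 11.9% of all 35116 windows of this length. GC boxes were found in 8 of the 11 windows, which belong to 6 of the 7 members, and in 42.6% of all windows. The CCAAT box was found in 4 of the 11, all of NF2 or TEAD2, and in 32.0% of all windows. The 2 NF2 windows overlap and hold the same GC box and CCAAT boxes, so they are not separate counts. Matched to GRCh37, these windows end 0, 5 and 1993 bases from the start of the transcript measured for NF2, TEAD3 and YAP1. A match is a description of the letters and not a binding site.

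Relative to the controls, NF2 and TEAD4 RNA rose and TEAD3 RNA fell in both sets of clones, and LATS2 rose in both. TEAD1 rose and WWTR1 fell in ΔE2, while LATS1 and YAP1 fell in ΔSE12313-b. STK3 and TEAD2 did not pass the test in any of the 3 comparisons. In the limma model, 4 members were higher and 2 were lower in ΔE2 at a Benjamini-Hochberg adjusted p under 0.05, where 34.7% and 19.4% of all genes tested were called in those directions. In ΔSE12313-b, 3 members were higher and 3 were lower, against 43.0% and 16.4% of all genes. With the further condition of a change of at least 2-fold, 1 member was higher (NF2) and 1 lower (TEAD3) in ΔE2, where 11.2% and 8.36% of genes were. The counts in ΔSE12313-b were 2 higher (NF2 and TEAD4) and 1 lower (TEAD3), against 14.7% and 7.83% of genes. With 10 members, these shares lie close enough to those of all genes that the counts alone do not set the members apart.

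The median of all genes tested was not at 0 on the log2 scale: it was 0.14 in ΔE2, 0.27 in ΔSE12313-b and -0.11 between the deletions. When each library was centred, the shares of all genes called higher and lower became 26.6% and 26.1% in ΔE2, and 27.7% and 27.3% in ΔSE12313-b. Centring left 3 members higher and 2 lower in ΔE2, and 2 higher and 4 lower in ΔSE12313-b. Calls of members that depend on this scaling are named with each gene. Levels and summed levels in FPKM are given without centring.

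**Figure D1:**
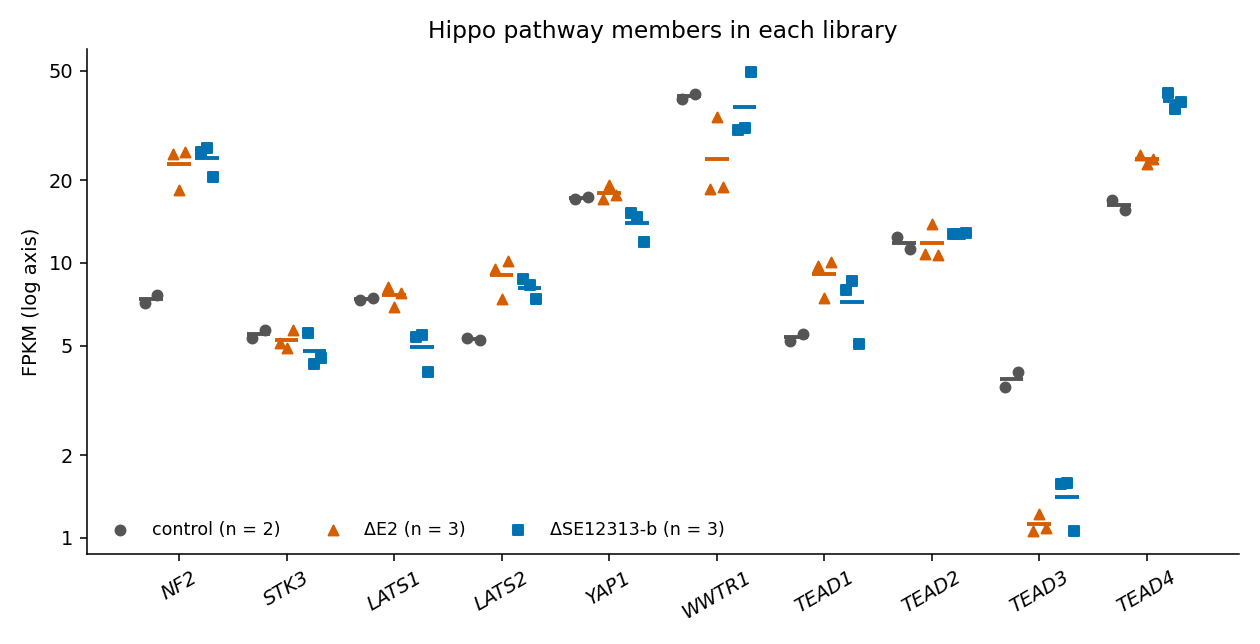
Level of each member in each of the 8 libraries, in FPKM on a log axis, with a bar at each group mean. The NF2 points of both knock-out groups lie above both controls (18.5 to 26.2 against 7.14 and 7.62 FPKM), and the TEAD3 points lie below them (1.06 to 1.59 against 3.55 and 4.01 FPKM).

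NF2 lies on chromosome 22 (chr22:29999545-30079904, plus strand; coordinates of members are in GRCh37, the build of the table). It stood at 7.14 and 7.62 FPKM in the controls, at 24.9, 18.5 and 25.3 FPKM in the ΔE2 clones, and at 25.3, 26.2 and 20.6 FPKM in the ΔSE12313-b clones. Every clone lay above both controls, while the 2 sets of clones overlapped. The log2 fold change was 1.60 in ΔE2 (SE 0.16, 3.04-fold, limma adjusted p = 0.000114) and 1.68 in ΔSE12313-b (SE 0.16, 3.21-fold, adjusted p = 6.89e-05). The call was kept under all 19 alternative settings in both groups, at log2 values of 1.39 to 1.75 and 1.35 to 1.79. Between the deletions NF2 differed by -0.08 (95% confidence interval -0.41 to 0.25), a sign that turned to 0.05 after centring. The 9 NF2 transcripts of the table spanned 1.54 to 1.60 in ΔE2 and 1.68 to 1.78 in ΔSE12313-b. Of the other 72 genes tested whose start lay within 5 Mb of NF2, 71 had a lower fold change than NF2 in each of the comparisons with the controls. By distance of centred log2 levels over the 8 libraries, the genes whose pattern was most like that of NF2 were CEP78, ICMT and LGR4, with root mean square distances of 0.0797, 0.0811 and 0.0890.

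STK3 (chr8:99466859-99837909, minus strand) encodes MST2, a kinase that acts on LATS. Its levels were 5.34 and 5.71 FPKM in the controls, 5.11, 4.90 and 5.69 FPKM in ΔE2 and 5.54, 4.29 and 4.49 FPKM in ΔSE12313-b. The 3 groups overlapped. Its log2 difference from the controls was -0.08 in ΔE2 (95% confidence interval -0.38 to 0.22, limma adjusted p = 0.633) and -0.21 in ΔSE12313-b (-0.52 to 0.09, adjusted p = 0.192). After centring, the ΔSE12313-b difference was -0.50 and passed the test (adjusted p = 0.0109).

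Of the LATS kinases, which phosphorylate YAP and TAZ, LATS2 rose in both sets of clones and LATS1 fell in ΔSE12313-b. LATS2 (chr13:21547176-21635722, minus strand) was at 5.31 and 5.24 FPKM in the controls, at 9.50, 7.40 and 10.2 FPKM in ΔE2 and at 8.73, 8.30 and 7.39 FPKM in ΔSE12313-b. All 6 clones lay above both controls. LATS2 rose by 0.75 on the log2 scale in ΔE2 (SE 0.14, 1.68-fold, limma adjusted p = 0.00299) and by 0.61 in ΔSE12313-b (SE 0.14, 1.53-fold, adjusted p = 0.00683). Under centring the ΔSE12313-b value was 0.32 and the call was lost (adjusted p = 0.0865). LATS1 (chr6:150004055-150039392, minus strand) was at 7.32 and 7.49 FPKM in the controls, at 8.19, 6.91 and 7.77 FPKM in ΔE2 and at 5.39, 5.45 and 4.01 FPKM in ΔSE12313-b. The ΔSE12313-b clones lay below every other library. Their log2 fold change was -0.58 (SE 0.15, 1.50-fold lower, adjusted p = 0.00966). Without either control library that call was lost (adjusted p up to 0.0609). In ΔE2 the LATS1 value was 0.04 (95% confidence interval -0.30 to 0.38), and -0.12 after centring.

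The ratio of LATS2 to LATS1 within a library, taken on FPKM + 0.1, depends little on how the library was scaled. It was 0.729 and 0.704 in the controls, 1.16, 1.07 and 1.31 in ΔE2 and 1.61, 1.51 and 1.82 in ΔSE12313-b. The 3 groups did not overlap. At the transcripts read, LATS1 exceeded LATS2 in both controls and LATS2 exceeded LATS1 in all 6 clones. LATS1 was read at the highest of 6 transcripts and LATS2 had 1, so which gene is higher can depend on that choice. The LATS1 transcripts differed little in fold change, at -0.007 to 0.04 in ΔE2 and -0.60 to -0.58 in ΔSE12313-b on the log2 scale. On the log2 scale the means were -0.48 ± 0.04 (SD, n = 2), 0.23 ± 0.15 (n = 3) and 0.72 ± 0.14 (n = 3). An exact permutation test of the F statistic over the 560 assignments of libraries to groups gave p = 0.00357, the smallest it can give. That test is one-sided in F, and its Benjamini-Hochberg value over the 3 ratios tested was 0.0107. The summed level of the pair was 12.7 ± 0.0700 FPKM in the controls, 16.7 ± 2.03 in ΔE2 and 13.1 ± 1.47 in ΔSE12313-b.

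**Figure D2:**
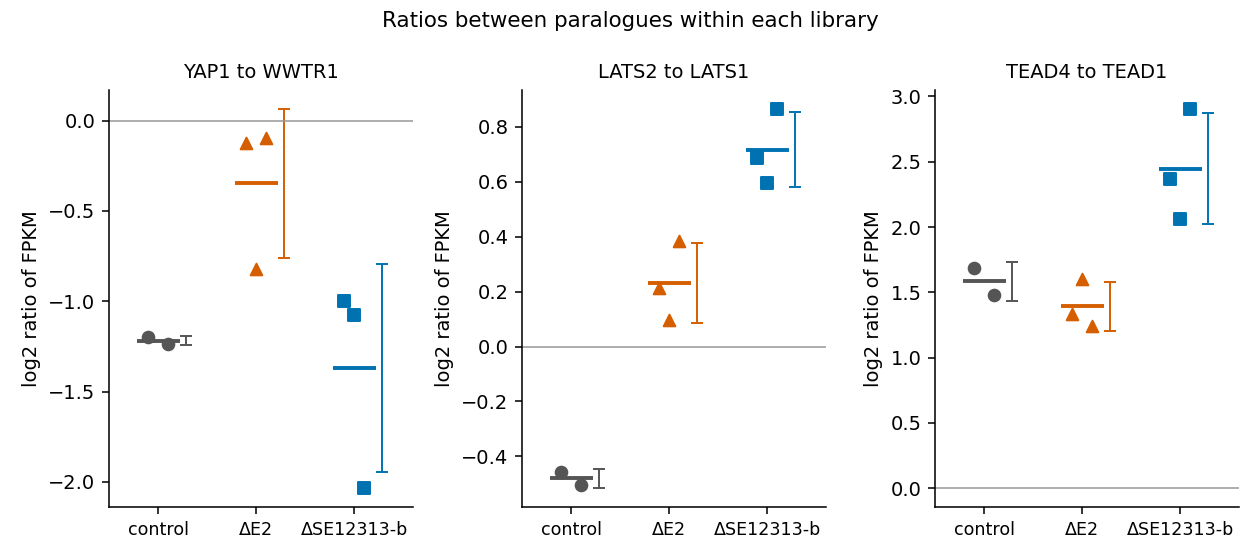
Ratio of the FPKM values of a pair of paralogues in each library on a log2 axis, with points for libraries, a thick bar at each group mean and a whisker of 1 SD on either side. The LATS2 to LATS1 groups do not overlap (means -0.48, 0.23 and 0.72), whereas the YAP1 to WWTR1 values of ΔSE12313-b lie on both sides of the controls.

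Of the co-activators, WWTR1 (TAZ; chr3:149235016-149375812, minus strand) had the highest level of all members in the controls. It was at 39.6 and 41.2 FPKM there, at 18.6, 34.1 and 18.9 FPKM in ΔE2 and at 30.6, 31.0 and 49.3 FPKM in ΔSE12313-b. All ΔE2 clones lay below both controls, replicate 2 far less so than the others, and replicate 3 of ΔSE12313-b lay above both controls. The log2 fold change in ΔE2 was -0.81 (SE 0.30, 1.76-fold lower, limma adjusted p = 0.0480), and the call was lost under 10 of 19 alternatives (adjusted p up to 0.176). Among these were leaving out either control, replicate 1 or 3 of ΔE2 (-0.67 and -0.68), or replicate 1 or 2 of ΔSE12313-b. Without ΔE2 replicate 2 it was -1.10 (adjusted p = 0.00549). In ΔSE12313-b the value was -0.16 (95% confidence interval -0.85 to 0.52, adjusted p = 0.658). That value was -0.45 after centring and -0.65 after quantile normalization, and ranged from -0.39 (without replicate 3) to -0.045 (without replicate 1) when a ΔSE12313-b clone was left out, never passing the test. An antisense gene, WWTR1-AS1, shares 756 of the 8353 exon bases of WWTR1, and its own level was 0.07 FPKM in the controls, 0.18 in ΔE2 and 0.20 in ΔSE12313-b.

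YAP1 (chr11:101983171-102104154, plus strand) encodes YAP. Its levels were 17.2 and 17.4 FPKM in the controls, 17.1, 19.2 and 17.7 FPKM in ΔE2 and 15.3, 14.7 and 12.0 FPKM in ΔSE12313-b. The ΔSE12313-b clones lay below every other library, and those of ΔE2 lay around the controls. YAP1 fell by 0.31 on the log2 scale in ΔSE12313-b (SE 0.11, 1.24-fold lower, limma adjusted p = 0.0435). This call was lost under 9 of 19 alternatives (adjusted p up to 0.158). They included leaving out either control, replicate 1 or 3 of ΔE2, or replicate 2 or 3 of ΔSE12313-b, and without that replicate 3 the value was -0.21. By contrast, centring made the value -0.60 (limma adjusted p = 0.00270). In ΔE2 the value was 0.06 (95% confidence interval -0.21 to 0.32), and -0.10 after centring.

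WWTR1 made up 69.7% and 70.3% of the summed YAP1 and WWTR1 level in the controls, 52.1%, 63.9% and 51.7% in ΔE2 and 66.7%, 67.9% and 80.5% in ΔSE12313-b. The share was below both controls in all 3 ΔE2 clones, and the ΔSE12313-b clones lay on either side. The log2 ratio of YAP1 to WWTR1 was -1.22 ± 0.03 (SD, n = 2) in the controls, -0.35 ± 0.41 (n = 3) in ΔE2 and -1.37 ± 0.58 (n = 3) in ΔSE12313-b. The exact permutation test over all 3 groups gave p = 0.0821, and 0.0821 after Benjamini-Hochberg adjustment over the 3 ratios. The summed level of both was 57.6 ± 1.30 FPKM in the controls, 41.9 ± 9.92 in ΔE2 and 50.9 ± 8.98 in ΔSE12313-b, so the clones of a deletion spread more widely than the controls.

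The TEAD factors, through which YAP and TAZ reach DNA, differed from one another in direction. TEAD4 (chr12:3068478-3149842, plus strand) was at 16.9 and 15.6 FPKM in the controls, at 24.6, 22.9 and 23.9 FPKM in ΔE2 and at 41.7, 36.3 and 38.6 FPKM in ΔSE12313-b. The 3 groups did not overlap. TEAD4 rose by 0.55 on the log2 scale in ΔE2 (SE 0.08, 1.46-fold, limma adjusted p = 0.000972) and by 1.25 in ΔSE12313-b (SE 0.08, 2.38-fold, adjusted p = 1.22e-05). Both calls were kept under all 19 alternatives, with lowest values of 0.26 and 0.82. The genes tested within 5 Mb of TEAD4, 68 in number, had median log2 fold changes of -0.33 and 0.31.

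TEAD3 (chr6:35441374-35464861, minus strand) went the other way. It was at 3.55 and 4.01 FPKM in the controls, at 1.06, 1.22 and 1.09 FPKM in ΔE2 and at 1.57, 1.59 and 1.06 FPKM in ΔSE12313-b. All 6 clones lay below both controls. These are the lowest levels of any member, resting on 134 and 144 reads in the controls and 44 to 75 reads in the clones. The log2 fold change was -1.67 in ΔE2 (SE 0.20, 3.18-fold lower, limma adjusted p = 0.000295) and -1.39 in ΔSE12313-b (SE 0.20, 2.61-fold lower, adjusted p = 0.000611). Both calls were kept under all 19 alternatives, at values of -1.83 to -1.17 and -1.67 to -0.997. The median over the 167 genes tested within 5 Mb was -0.01 in ΔE2 and 0.16 in ΔSE12313-b. The genes with the most similar pattern over the 8 libraries were NSUN5P1, ANO8 and PGGHG, at root mean square distances of 0.0961, 0.0978 and 0.134 on the log2 scale.

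TEAD1 (chr11:12695969-12966284, plus strand) was at 5.20 and 5.53 FPKM in the controls, at 9.72, 7.47 and 10.1 FPKM in ΔE2 and at 8.0, 8.59 and 5.07 FPKM in ΔSE12313-b. The ΔE2 clones lay above both controls, while ΔSE12313-b replicate 3 lay below them. TEAD1 rose by 0.74 on the log2 scale in ΔE2 (SE 0.23, 1.67-fold, limma adjusted p = 0.0260), a call lost under 6 of 19 alternatives. These were centring (0.58, adjusted p = 0.0657), quantile normalization, and leaving out either control or replicate 1 or 3 of ΔE2 (0.66 to 0.78, adjusted p up to 0.126). In ΔSE12313-b its value was 0.39 (95% confidence interval -0.14 to 0.91, adjusted p = 0.177), and it depended on the setting. Without replicate 3 it was 0.62 and passed the test (limma adjusted p = 0.0110), without replicate 2 it was 0.25, after centring 0.10 (adjusted p = 0.733) and after quantile normalization 0.11. TEAD2 (chr19:49843853-49865714, minus strand) was at 12.4 and 11.2 FPKM in the controls, at 10.8, 13.9 and 10.7 FPKM in ΔE2 and at 12.7, 12.7 and 12.8 FPKM in ΔSE12313-b. Its differences were -0.01 in ΔE2 (95% confidence interval -0.30 to 0.27) and 0.11 in ΔSE12313-b (-0.17 to 0.39), and the latter was -0.18 after centring.

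**Figure D3:**
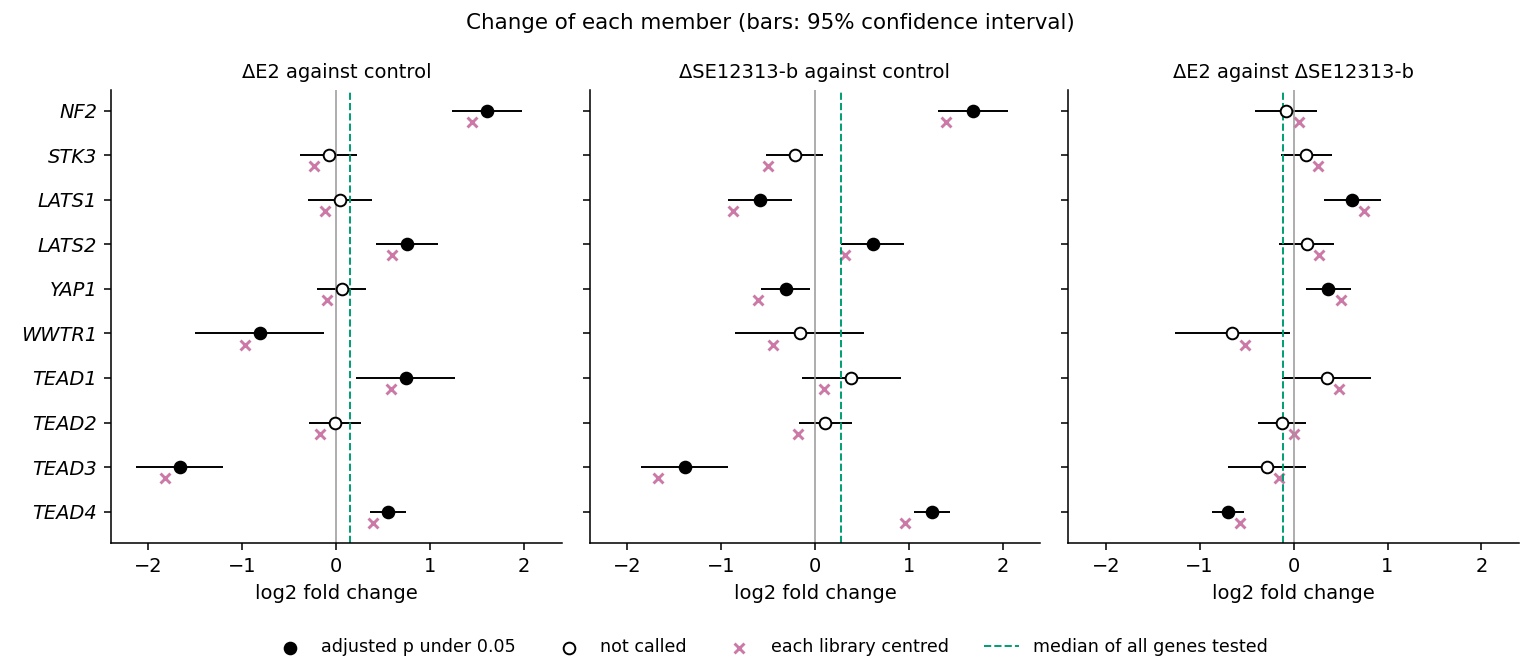
Log2 fold change of each member with its 95% confidence interval in the 3 comparisons. Filled points passed an adjusted p of 0.05, crosses are values after centring each library, and the dashed line is the median of all genes tested (0.14, 0.27 and -0.11). NF2 and TEAD3 lie far from that line on opposite sides in both comparisons with the controls.

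The make-up of TEAD transcripts, compared per length at the 1 transcript read for each gene, was as follows. TEAD2 was read at the highest of 6 transcripts and TEAD4 at the highest of 3, while TEAD1 and TEAD3 had 1 each. TEAD4 supplied 43.7% ± 1.11 (SD, n = 2) of the summed TEAD level in the controls, 52.0% ± 1.49 (n = 3) in ΔE2 and 64.5% ± 2.94 (n = 3) in ΔSE12313-b. TEAD3 supplied 10.2% ± 1.22, 2.44% ± 0.206 and 2.32% ± 0.438. TEAD2 stood at 31.8% in the controls, 25.8% in ΔE2 and 21.2% in ΔSE12313-b, and TEAD1 stood at 14.4%, 19.8% and 11.9%. The summed TEAD level was 37.2 ± 1.24 FPKM in the controls, 45.8 ± 0.389 in ΔE2 and 60.2 ± 3.32 in ΔSE12313-b. No test was run on the shares or sums. The log2 ratio of TEAD4 to TEAD1 was 1.58 ± 0.15 (n = 2), 1.39 ± 0.19 (n = 3) and 2.45 ± 0.42 (n = 3). The exact permutation test gave p = 0.0214 and 0.0321 after Benjamini-Hochberg adjustment over the 3 ratios. Leaving out either control, or ΔE2 replicate 1 or 3, raised the unadjusted exact p to 0.0571 to 0.0762.

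**Figure D4:**
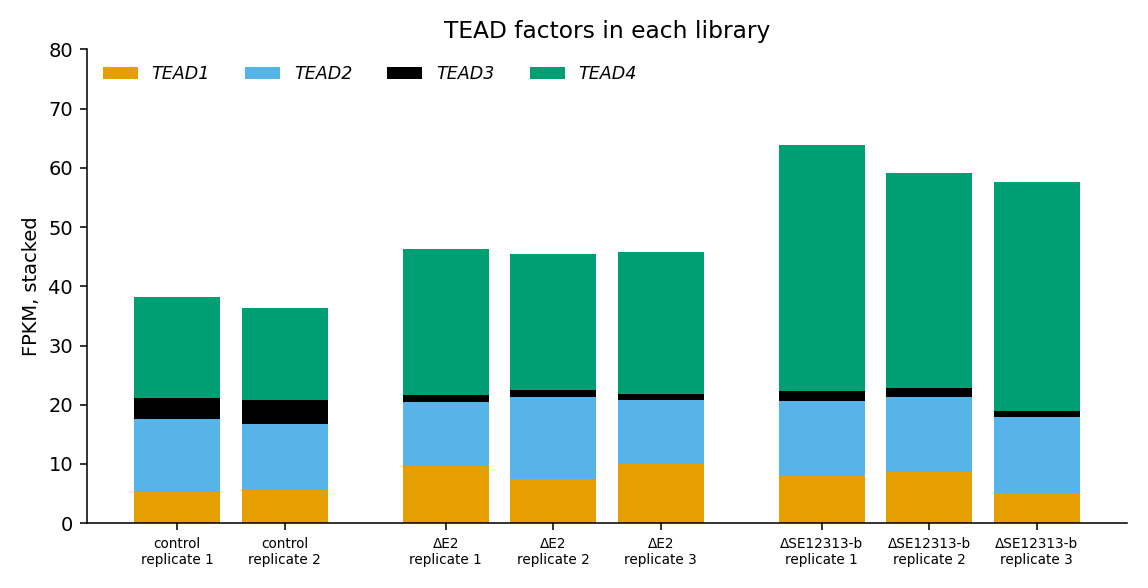
Summed FPKM of TEAD1 to TEAD4 in each library, stacked by gene on a linear axis from 0. The TEAD4 part is the tallest in every library, the TEAD3 part is thin in all 6 clones, and the stacks of ΔSE12313-b (57.6 to 63.9 FPKM) stand above those of ΔE2 (45.5 to 46.2) and the controls (36.4 to 38.1).

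The order of the members by mean level, each at the transcript read, also differed between groups. In the controls it ran from WWTR1 (40.4 FPKM) through YAP1 (17.3), TEAD4 (16.3) and TEAD2 (11.8) to LATS1 (7.40) and NF2 (7.38), which overlapped. STK3, TEAD1 and LATS2 followed at 5.53, 5.36 and 5.28 FPKM with overlapping libraries, and TEAD3 was last at 3.78. In ΔE2 the 4 highest members, WWTR1, TEAD4, NF2 and YAP1, overlapped from each to the next (23.9, 23.8, 22.9 and 18.0 FPKM). In ΔSE12313-b TEAD4 and WWTR1 overlapped at the top (38.8 and 36.97 FPKM), ahead of NF2 at 24.0. TEAD3 remained the lowest member in each group. NF2 stood sixth in the controls and at rank 3 in both deletions, and its level relative to LATS1 went from overlap to a clear separation.

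The deletions were then compared with each other, a comparison of clones with clones in which the controls enter only the shared estimate of the spread. In ΔE2 relative to ΔSE12313-b, LATS1 and YAP1 were higher and TEAD4 was lower. The direct log2 differences were 0.62 for LATS1 (SE 0.13, 1.54-fold, limma adjusted p = 0.0120), 0.37 for YAP1 (SE 0.10, 1.29-fold, adjusted p = 0.0317) and -0.70 for TEAD4 (SE 0.07, 1.63-fold lower in ΔE2, adjusted p = 0.00102). In each of these genes the 3 clones of one deletion did not overlap the 3 of the other. The YAP1 call was lost under 7 of 19 alternatives (adjusted p up to 0.0773), among them leaving out either control or any of the ΔE2 clones, and those of LATS1 and TEAD4 under none. Thus 2 members were called higher and 1 lower, where 6.69% and 19.3% of all genes were. No member passed with a change of at least 2-fold, as 1.60% and 2.63% of genes did. After centring, the calls of all genes split into 10.6% higher and 11.1% lower, with the count of members as before. Among the others, WWTR1 differed by -0.65 (95% confidence interval -1.27 to -0.04, adjusted p = 0.110) and, without ΔE2 replicate 2, by -0.94 (adjusted p = 0.0176). Without ΔSE12313-b replicate 3 it was -0.43 (limma adjusted p = 0.267). The intervals of TEAD3 (-0.70 to 0.13) and LATS2 (-0.16 to 0.43) covered 0.

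Genes lying near these members differed between the deletions in the same direction. Within 5 Mb of LATS1, the 34 other genes tested had a median log2 difference of 0.31 between ΔE2 and ΔSE12313-b, beside 0.62 for LATS1. Within 5 Mb of YAP1 the median of 17 genes was 0.29, beside 0.37, and within 5 Mb of TEAD4 the median of 68 genes was -0.56, beside -0.70. The median of all genes was -0.11. For WWTR1 the 25 genes nearby had a median of -0.34, beside -0.65. In ΔSE12313-b against the controls, the genes around YAP1 had a median of -0.56, lower than the -0.31 of YAP1 itself. Copy number was not measured, and the part of these neighbourhoods in the members' values was not tested. In this direct comparison YAP1 and TEAD4 lay within the quartiles of the genes around them, and LATS1 and WWTR1 lay outside. In both comparisons with the controls NF2, TEAD3, TEAD4 and WWTR1 lay outside the quartiles of the genes around them.

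**Figure D5:**
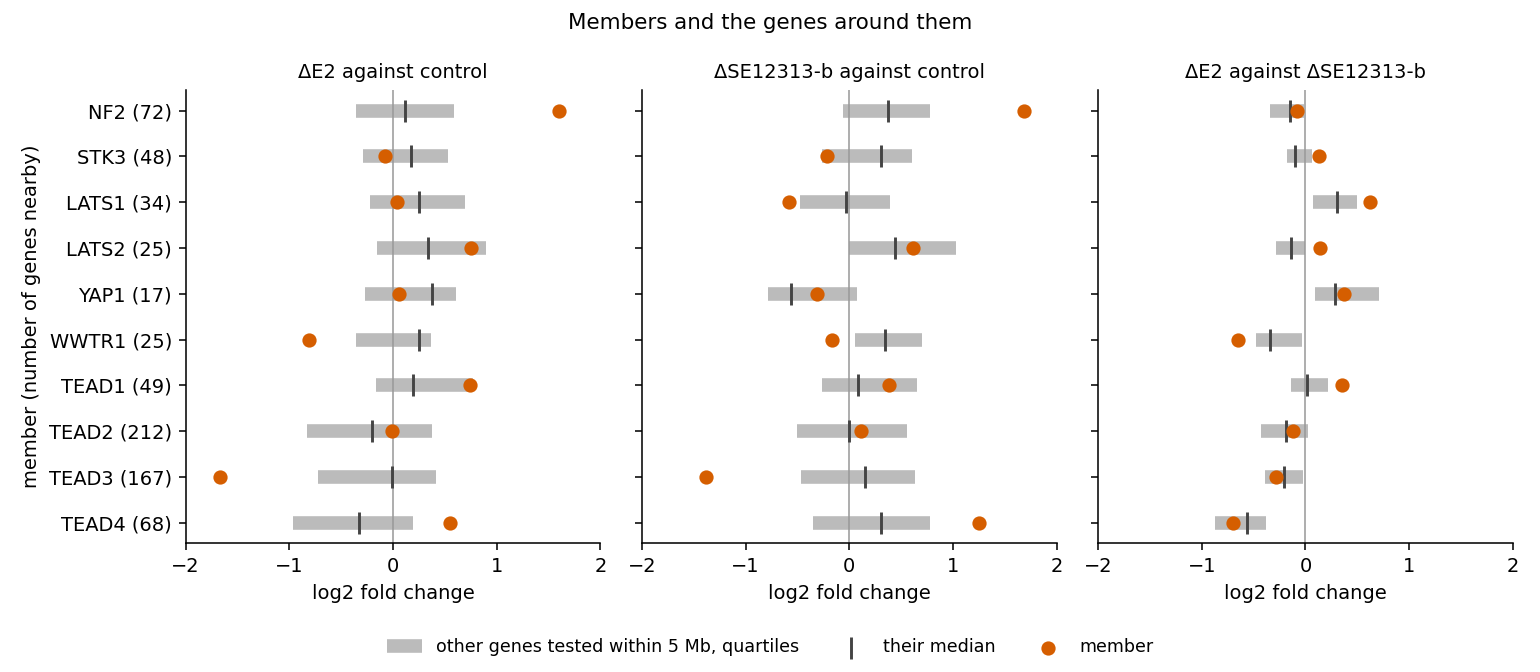
Log2 fold change of each member (circle) beside the quartiles (bar) and the median (tick) of the other genes tested within 5 Mb, in the 3 comparisons. NF2, TEAD3, TEAD4 and WWTR1 lie outside their bars in both comparisons with the controls. In ΔE2 against ΔSE12313-b the YAP1 and TEAD4 circles lie within their bars (medians 0.29 and -0.56), while those of LATS1, WWTR1, STK3, LATS2 and TEAD1 lie outside.

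Other genes of the pathway were counted in lists arranged by role. Of the upstream regulators and kinase module, 24 of 28 listed genes were tested, with 10 higher and 3 lower in ΔE2 and 10 higher and 4 lower in ΔSE12313-b. Of all genes tested, 34.7% were higher and 19.4% lower in ΔE2, and 43.0% and 16.4% in ΔSE12313-b. The list's median log2 fold changes were 0.18 and 0.33, beside 0.14 and 0.27 over all genes. WWC3, of the KIBRA family that promotes LATS activity, had log2 fold changes of -1.45 and -1.70 (limma adjusted p = 0.0104 and 0.00426), and the kinase MARK4 had -1.49 and -0.92 (0.000411 and 0.00393). FAT4, a large protocadherin, rose by 1.76 in ΔE2 (adjusted p = 0.000131), and its value in ΔSE12313-b was 0.47 (adjusted p = 0.0513).

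The STRIPAK complex, a phosphatase assembly that opposes MST kinases, had all 18 listed genes tested, with 7 higher and 3 lower in ΔE2 and 11 higher and 1 lower in ΔSE12313-b (medians 0.18 and 0.32). The shares over all genes were 34.7% and 19.4%, and 43.0% and 16.4%. Subunits of protein phosphatase 2A were among those that rose. PPP2R1B rose by 1.27 and 0.80, PPP2R1A by 0.72 and 0.74 and the catalytic subunit PPP2CA by 0.63 and 0.65 on the log2 scale. Their limma adjusted p-values lay between 2.91e-05 and 0.00140. The scaffold STRN rose by 0.61 and 0.79 (adjusted p = 0.00236 and 0.000524).

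Of the genes for retention, turnover and junction binding of YAP and TAZ, 21 of 23 were tested, with 9 higher and 4 lower in ΔE2 and 11 higher and 3 lower in ΔSE12313-b (medians 0.30 and 0.34), beside the same shares over all genes (34.7% and 19.4%, 43.0% and 16.4%). AMOTL2, an angiomotin that binds YAP at junctions, rose by 1.35 and 1.30 (limma adjusted p = 0.00270 and 0.00276). The 14-3-3 proteins, which hold phosphorylated YAP in the cytoplasm, were represented by YWHAQ (0.96 and 1.05), YWHAH (0.97 and 0.98) and YWHAB (0.78 and 0.79), with adjusted p-values of at most 6.38e-05. Of the TEAD cofactors, 12 of 16 were tested, with 1 higher and 3 lower in ΔE2 and 4 higher and 0 lower in ΔSE12313-b (medians -0.08 and 0.10), against 34.7% and 19.4%, and 43.0% and 16.4%, of all genes. VGLL3, a TEAD-binding vestigial-like protein, rose by 1.49 in ΔE2 (adjusted p = 0.000838), and its value in ΔSE12313-b was 0.44 (adjusted p = 0.117). VGLL4, a competitor of YAP for TEAD, fell by 0.64 in ΔE2 (adjusted p = 0.00897) against a value of -0.20 in ΔSE12313-b (0.287), and JUN fell by 0.66 in ΔE2 (0.00488) against -0.22 (0.213). NCOA1, a nuclear receptor co-activator, was at 0.17 in ΔE2 (0.212) and rose by 0.55 in ΔSE12313-b (0.00299).

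Of the 21 listed target genes of YAP and TAZ 19 were tested, and 7 were higher and 2 lower in each comparison with the controls. Over all genes 34.7% were higher and 19.4% lower in ΔE2, and 43.0% and 16.4% in ΔSE12313-b, so the counts do not set the targets apart. The list had medians of 0.53 in ΔE2 and -0.07 in ΔSE12313-b. ANKRD1, a much-used reporter of YAP activity, had a mean of 22.2 ± 0.245 FPKM in the controls (SD, n = 2), 309 ± 109 in ΔE2 (n = 3) and 206 ± 87.2 in ΔSE12313-b (n = 3). It rose by 3.72 and 3.10 on the log2 scale (limma adjusted p = 0.000273 and 0.000560). CTGF, a secreted matrix-associated protein, rose by 2.62 in ΔE2 (adjusted p = 0.00397), while in ΔSE12313-b its value was 1.29 (adjusted p = 0.0658). NT5E, the surface ecto-nucleotidase CD73, fell in both (-1.45 and -1.41), as did GADD45A, a stress-response gene (-1.27 and -1.41, adjusted p of at most 0.000957 for both genes). Between the deletions, 4 targets were higher in ΔE2 and 1 was lower, with a median of 0.05, where 6.69% and 19.3% of all genes were called.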

How the data were processed

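Total RNA from 8 EA.hy926 libraries was depleted of rRNA and sequenced from a directional kit as single-end reads. Per the submitters' processing notes and the study's methods, reads were trimmed with Trim Galore 0.4.4 and aligned with STAR 2.5.4b to GRCh37 (hg19). The authors deposited FPKM values per RefSeq transcript, and the tool, RefSeq release and strand setting behind them are not given in the sources used here. Their featureCounts counts, and the test made on them, were not used here.

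Each gene was read at the transcript with the highest mean FPKM. The test was made in limma (version 3.58.1, R version 4.3.3) on log2(FPKM + 0.1) (empirical Bayes with trend, 3 groups in 1 model, two-sided, no covariates), for the 13790 genes that reached 0.5 FPKM in 2 or more libraries. Fold changes are on the log2(FPKM + 0.1) scale, which understates those of low genes. A gene was called at a Benjamini-Hochberg adjusted p under 0.05 over all genes tested. Reads were recovered from FPKM and transcript length. Of the values low enough to be checked, 18150 to 24256 per library, at least 99.98% were whole within 0.1 read. The library sizes were themselves fitted so that values came out whole. The test was also run on simulated reads drawn with the same spread in every group. That run cannot show how the test behaves where groups differ in spread. Paralogue ratios were taken on FPKM + 0.1 and tested by exact permutation. Exons shared with genes of the opposite strand, from 11 to 756 bases, were found for LATS1, STK3, TEAD2, WWTR1 and YAP1, and since the strand setting is unknown, reads there cannot be assigned.

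The members and the gene lists were chosen with earlier results of these data known. All members are named, and from each pathway list up to 4 genes called in at least 1 comparison with the controls, by the mean of both log2 fold changes; 1 gene that this rule names is not reported here. The 3 genes nearest in pattern are given for the 2 members with the widest range of group means. Alternatives covered the pseudocount, the expression filter, scaling, a replicate block, the trend, the groups in the model, transcripts, voom on recovered reads and each library left out.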

Additional observations from a re-analysis of the deposited data

Results flagged for a closer look

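In 3 members the clones of one deletion differed from those of the other by a direct test, the limma comparison of ΔE2 with ΔSE12313-b. LATS1 was higher in ΔE2 by 0.62 on the log2 scale (adjusted p = 0.0120), with the lowest ΔE2 clone at 6.91 FPKM and the highest ΔSE12313-b clone at 5.45. YAP1 was higher by 0.37 (adjusted p = 0.0317), with 17.1 FPKM as its lowest value in ΔE2 and 15.3 as its highest in ΔSE12313-b. The YAP1 call was lost under 7 of 19 alternatives. TEAD4 was lower in ΔE2 by -0.70 (adjusted p = 0.00102), with 24.6 FPKM as its highest value there and 36.3 as the lowest in ΔSE12313-b. The median differences of the genes within 5 Mb were 0.31, 0.29 and -0.56 for these members, and their part was not tested.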

How the results depend on the processing

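The calls of NF2, TEAD3 and TEAD4 against the controls in both deletions, and of LATS2 in ΔE2, held under all 19 alternatives. With every transcript in the fit, 23209, 25333 and 11968 transcripts were called in ΔE2, in ΔSE12313-b and between the deletions, against 7455, 8188 and 3590 genes, more features being tested. Members lower in ΔE2 numbered 1 instead of 2 (WWTR1 lost) with genes above 0 in 2 libraries, the replicate block, no trend, or only the compared groups fitted, and 1 to 2 with a library left out. Members lower in ΔSE12313-b numbered 1 to 3 with a library left out, 1 without either control (LATS1 and YAP1 lost). Between the deletions, members higher numbered 1 instead of 2 without the trend or with only the compared groups, and 1 to 2 with a library left out, and members lower 1 to 2. The YAP1 to WWTR1 log2 ratio of ΔSE12313-b minus control ranged from -0.34 to 0.18 with a library left out, positive at 0.18 without ΔSE12313-b replicate 3. The TEAD4 to TEAD1 ratio differences ranged from -0.30 to -0.087 in ΔE2 and 0.63 to 1.1 in ΔSE12313-b.

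Values near 0 changed sign: LATS1 in ΔE2 to -0.12 (centred), -0.16 (quantile) and -0.014 to 0.11 (library left out), YAP1 in ΔE2 to -0.10 and -0.23 (centred and quantile, as for the next genes), TEAD2 in ΔSE12313-b to -0.18 and -0.26, NF2 between the deletions to 0.053, 0.041 and -0.18 to 0.069, TEAD2 between the deletions to 0.0070 and 0.0052, and TEAD2 in ΔE2 to 0.016 with the block and -0.14 to 0.058 with a library left out. The cause was not tested. Replicate numbers in the labels did not pair the libraries: deviations of same-numbered clones of the 2 deletions correlated at 0.11, -0.08 and -0.07, and not every clone correlated best with its own number. With the replicate block 6402, 7242 and 2534 genes were called. Voom on recovered reads called 7360, 8123 and 3922. With a lone control library, its spread is assumed to be that of the other groups. Depth limits TEAD3 most, at 44 to 144 reads.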
